A study of Mus musculus with 6 samples.

Results

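The transporters described here carry bile acids, organic anions, drugs and phospholipids across the membranes of the hepatocyte. They are 10 genes, 4 for uptake from blood across the sinusoidal membrane (Slc10a1, Slco1a1, Slco1a4 and Slco1b2), 5 for export or membrane integrity at the canalicular membrane (Abcb11, Abcb4, Abcb1a, Abcc2 and Atp8b1) and Abcc3 for efflux back to blood. They were chosen by gene name, with no threshold on a value, out of 18820 genes that have a probe set annotated to 1 gene, and each of the 10 had 1 such probe set. Liver RNA of 3 CT and 3 LERKO females on a C57BL/6J background was hybridised to Affymetrix Mouse Gene 1.1 ST arrays, each array holding the RNA of 1 mouse, and the labels name the mice of a group biological replicates. The CT genotype is ERα fl/fl, with floxed ERα alleles, and LERKO females have these alleles together with the Alb-cre transgene, which expresses cre recombinase from the albumin promoter (Alb-cre/ERα fl/fl). No group carried Alb-cre without floxed alleles, so an effect of cre and an effect of the loss of ERα cannot be told apart. The albumin promoter is active in hepatocytes. The study names non-parenchymal cells as the likeliest source of the ERα that remains in LERKO liver. Esr1 was not measured by cell type here. How old these mice were is not given in the sources used here. Values are signals on the log2 scale, on which a difference of 1 is a doubling, and a probe set entered the comparison if it reached a signal of 100 (6.64 on the log2 scale) in at least 1 array.

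Bile acids are made from cholesterol in hepatocytes, pumped into the canaliculus, reabsorbed in the intestine and taken up again from portal blood. Canalicular export by Abcb11 sets bile flow, Abcb4 adds phospholipid that protects the biliary epithelium, and inherited loss of either, or of Atp8b1, causes cholestasis. High estrogen doses cause cholestasis in rodents, and ERα is known to take part in this, which is the background for asking how these genes stand in liver without hepatocyte ERα.

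Promoter sequences are shown for 6 of the genes, because ERα, whose loss separates the groups, binds DNA at repeats of the letters GGTCA. Each window runs from 250 bases before to 50 bases after the RefSeq transcription start (build GRCm38.p6), 5′ to 3′ on the strand of the gene, and capitals mark GGTCA or its reverse complement TGACC. The uptake carriers come first, of which the 3 Slco1 genes neighbour each other on chromosome 6, followed by the bile acid pump and the phospholipid carrier.
Slc10a1 (chr12:80968656-80968955, minus strand): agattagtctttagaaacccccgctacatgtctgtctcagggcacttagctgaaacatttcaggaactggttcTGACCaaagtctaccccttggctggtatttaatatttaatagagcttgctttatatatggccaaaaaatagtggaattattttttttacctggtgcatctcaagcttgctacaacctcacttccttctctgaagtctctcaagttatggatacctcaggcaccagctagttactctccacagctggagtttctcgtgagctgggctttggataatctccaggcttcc
Slco1b2 (chr6:141629268-141629567, plus strand): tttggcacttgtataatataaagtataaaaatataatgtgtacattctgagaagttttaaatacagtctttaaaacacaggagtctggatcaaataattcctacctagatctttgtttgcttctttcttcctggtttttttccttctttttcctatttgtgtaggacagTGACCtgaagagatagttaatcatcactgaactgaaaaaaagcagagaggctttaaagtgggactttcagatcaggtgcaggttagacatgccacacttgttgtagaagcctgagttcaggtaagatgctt
Slco1a4 (chr6:141856171-141856470, minus strand): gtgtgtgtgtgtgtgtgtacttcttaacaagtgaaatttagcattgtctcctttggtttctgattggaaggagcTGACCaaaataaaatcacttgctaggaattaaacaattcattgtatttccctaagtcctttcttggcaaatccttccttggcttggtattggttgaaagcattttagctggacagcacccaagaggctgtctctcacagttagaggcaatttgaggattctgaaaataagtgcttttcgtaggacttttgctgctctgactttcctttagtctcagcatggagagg
Slco1a1 (chr6:141946913-141947212, minus strand): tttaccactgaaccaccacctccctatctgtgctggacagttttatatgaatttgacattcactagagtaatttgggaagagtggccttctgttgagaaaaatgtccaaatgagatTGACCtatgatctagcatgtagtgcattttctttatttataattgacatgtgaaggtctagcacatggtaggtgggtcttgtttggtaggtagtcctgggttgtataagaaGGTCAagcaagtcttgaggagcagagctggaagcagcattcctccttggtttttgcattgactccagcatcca
Abcb11 (chr2:69342567-69342866, minus strand): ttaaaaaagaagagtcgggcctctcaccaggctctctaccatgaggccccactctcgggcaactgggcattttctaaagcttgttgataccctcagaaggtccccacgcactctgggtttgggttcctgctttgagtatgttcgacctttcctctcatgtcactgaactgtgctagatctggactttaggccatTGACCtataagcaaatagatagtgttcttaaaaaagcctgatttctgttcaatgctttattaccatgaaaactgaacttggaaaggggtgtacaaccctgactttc
Abcb4 (chr5:8893471-8893770, plus strand): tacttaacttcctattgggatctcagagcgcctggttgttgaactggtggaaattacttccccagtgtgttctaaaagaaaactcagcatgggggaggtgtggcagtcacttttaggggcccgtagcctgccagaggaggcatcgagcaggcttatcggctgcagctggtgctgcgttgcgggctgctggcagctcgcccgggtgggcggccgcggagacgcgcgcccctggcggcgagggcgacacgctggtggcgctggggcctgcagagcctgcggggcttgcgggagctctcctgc

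Windows of 8 of the 10 genes were searched, and Slc10a1 had 2 windows. Atp8b1 was left out of the search by its chromosome, and no window of Abcc3 was available. GGTCA, searched on both strands, occurred in the windows of 6 of these 8 genes (Slc10a1, Slco1b2, Slco1a4, Slco1a1, Abcb11 and Abcc2). Counted by window, it occurred in 7 of 9, beside 40.5% of all 32851 windows of the same length. Slco1a1 and Abcc2 each held 2 copies, and the windows of Abcb4 and Abcb1a held none. In Slco1a1 the copies begin at positions −134 and −23 from the start, and in Abcb11 the single copy begins at position −56. The full palindrome GGTCANNNTGACC, which contains the shorter motif on each side, was in 0 of the 8 genes and in 0.07% of all windows. These matches describe letters within the windows and do not show binding.

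Esr1, the deleted gene, was measured first as a check of the labels. Its signals were 8.45, 8.78 and 8.29 in the CT mice and 6.75, 7.06 and 6.77 in the LERKO mice, so each array carried the level of its labelled genotype (log2 fold change −1.65, adjusted p = 0.149 from limma). Its adjusted p from limma was 0.0409 where a signal of 100 was required in all 6 arrays, another reading of the filter in the study's methods, and 0.0485 with a variance trend. Hepatocyte markers (7 of 7 above a signal of 100 in all arrays) had a summed signal of 15.93 to 16.02 in CT and of 15.94 to 15.98 in LERKO on the log2 scale. Endothelial markers summed to 11.15 to 11.52 in CT and 11.17 to 11.34 in LERKO, and the sums of Kupffer and stellate cell markers overlapped too. A pair of arrays held genes of other organs. In CT replicate 3, 3 of 5 measured pancreas markers and 3 of 5 muscle markers reached a signal of 100, and no such marker did so in another array. In LERKO replicate 2, 4 of 6 adrenal cortex markers did. The summed pancreas signal was 6.04 to 10.73 in CT and 6.09 to 6.22 in LERKO, the summed muscle signal 6.12 to 9.68 and 6.35 to 7.67, and the summed adrenal signal 6.08 to 6.16 and 6.25 to 12.73. Without both arrays the log2 fold change was 0.11 for Slc10a1, 0.16 for Slco1b2, 0.03 for Abcb11 and 0.10 for Abcc3, beside 0.08, 0.16, 0.04 and 0.09 with them, and the values of the other transporters without them stand with each gene or in the closing section. In whole liver, fewer cells of a type and less RNA per cell cannot be told apart.

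Most of the transporters differed little between CT and LERKO liver, and none passed the false discovery rate of 5%. Over all 10633 probe sets compared, 0 (0%) had an adjusted p under 0.05 from limma, 742 had an unadjusted p under 0.05, and the methods' t-test gave 0 after Benjamini-Hochberg adjustment and 455 before it. Of the 10 transporters, 8 lay above 0 in LERKO and 2 below, beside 46.5% of all probe sets above 0. At an unadjusted p under 0.05 from limma, 1 was higher (Abcb4) and 1 lower (Atp8b1), where 2.98% of all probe sets were higher and 4.0% lower. The mice of the groups did not overlap for 1 higher gene (Slc10a1) and 1 lower gene (Atp8b1), where 5.91% of all probe sets were higher and 7.13% lower without overlap. For 6 of the 10 (Slc10a1, Slco1a4, Slco1b2, Abcb11, Abcc2 and Abcc3) the 95% confidence interval of the difference lay within 1.5-fold in either direction. For Slco1a1, Abcb4, Abcb1a and Atp8b1 it reached beyond 1.5-fold.

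**Figure D1:**
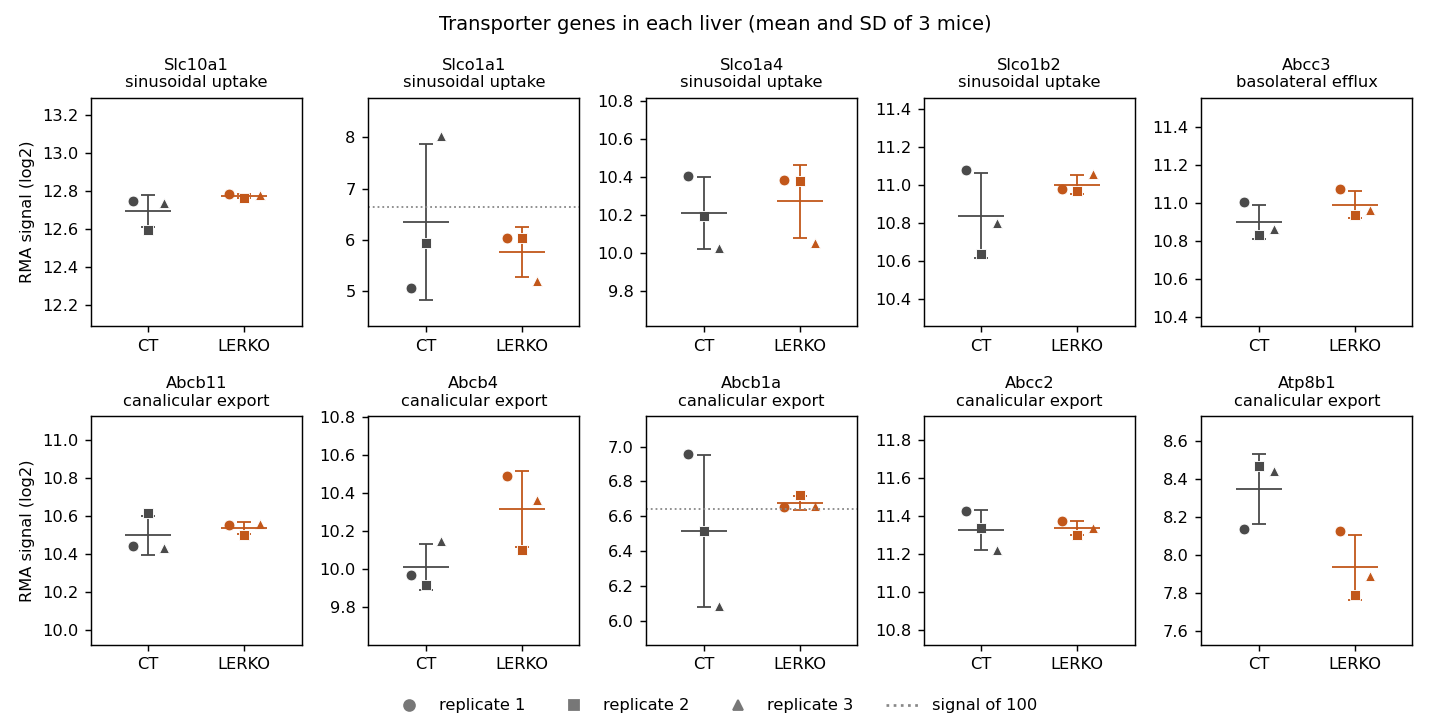
RMA signal (log2) of the 10 transporter genes, each symbol a mouse, lines and bars giving mean and SD (3 CT and 3 LERKO mice); axes differ between panels, and the dotted line marks a signal of 100. Slco1a1 passes that line only in CT replicate 3, for Atp8b1 every LERKO mouse lies below every CT mouse by a small margin, and Abcb11 and Abcc2 overlap.

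Slc10a1 (probe set 10401289), the sodium-dependent carrier that takes conjugated bile acids from portal blood, was nearly level across the mice. Signals were 12.75, 12.60 and 12.74 in CT and 12.79, 12.77 and 12.78 in LERKO. All LERKO mice lay above all CT mice, but the lowest LERKO and highest CT signals were close, and CT replicate 2 was the lowest of the 6. The CT level was 12.70 ± 0.09 and the LERKO level 12.78 ± 0.01 (each mean ± SD, n = 3 mice). LERKO signal was 1.06-fold that of CT (95% confidence interval 0.941 to 1.19, adjusted p = 0.821 from limma). The log2 fold change of 0.08 was 0.03 without CT replicate 2. The exact two-sided permutation test gave p = 0.1, and no smaller p is possible with 3 mice a group.

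Slco1b2 (probe set 10542615), a sodium-independent carrier of bile acids, bilirubin and drugs, had signals of 11.08, 10.64 and 10.80 in CT and 10.98, 10.97 and 11.06 in LERKO. CT replicate 2 was again the lowest, CT replicate 1 was the highest of all 6 mice, and the groups overlapped. The difference on the log2 scale was 0.16 ± 0.12 (standard error; limma adjusted p = 0.796) and 0.06 without CT replicate 2. Slco1a4 (probe set 10548996), which transports organic anions and cardiac glycosides, had 10.41, 10.20 and 10.03 in CT and 10.39, 10.38 and 10.05 in LERKO. Replicate 3 of each group was its lowest mouse. The ratio of LERKO to CT was 1.04 (95% confidence interval 0.835 to 1.31, adjusted p = 0.934 from limma), and the log2 fold change of 0.06 turned to −0.03 without CT replicate 3.

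Slco1a1 (probe set 10548978) stood apart from the other uptake carriers, in that a single mouse carried its signal. This gene encodes an organic anion carrier that takes up steroid conjugates and bile acids and is known to be much higher in male than in female mouse liver. Its signals were 5.06, 5.94 and 8.03 in the CT mice and 6.04, 6.03 and 5.19 in the LERKO mice. Only CT replicate 3 reached a signal of 100, and the other 5 mice lay below it, so the gene entered the comparison through that mouse alone. The CT level was 6.34 ± 1.53 (SD, n = 3 mice) and the LERKO level 5.75 ± 0.49 (SD, n = 3). The log2 fold change of −0.59 (95% confidence interval −2.32 to 1.14, adjusted p = 0.866 from limma) turned to 0.25 without CT replicate 3. Its spread within groups was 1.13 on the log2 scale, beside a median of 0.123 over all probe sets compared, and 0.555% of these had a larger spread.

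Other male-biased genes were also high in CT replicate 3. Cyp4a12a, a cytochrome P450 that hydroxylates fatty acids, was at 8.17 in that mouse and between 3.75 and 5.82 in the others. The neighbouring enzyme Cyp4a12b was at 8.31 beside 4.33 to 5.83. Hsd3b5, a ketosteroid reductase of male liver, was at 6.59 beside 2.97 to 3.65, and stayed below a signal of 100 in all mice. Mup20, a male urinary protein, was at 12.43 beside 10.43 to 11.46. Not all male-biased genes followed, since Elovl3, a fatty acid elongase, was highest in LERKO replicate 3 at 6.97 and Selenbp2, a selenium-binding protein, was at 7.67 in CT replicate 3, within the range of the other mice. Cyp4a12a and Cyp4a12b reached a signal of 100 in CT replicate 3 alone, so they entered the comparison through that mouse. Cyp2d9 was at 7.78 in CT replicate 3 and between 5.99 and 6.98 in the others. Ugt2b38 was at 8.71 beside 8.19 to 8.66, and Susd4 at 6.96 beside 5.43 to 6.74. Gstp1, at 10.76, was within the range of the other mice, 10.22 to 10.79. The summed signal of the 11 listed male-biased genes was 12.16 to 13.14 in CT and 11.73 to 12.30 in LERKO. The 10 measured female-biased genes had a summed signal of 13.98 to 14.07 in CT and 14.14 to 14.37 in LERKO, and CT replicate 3 had the lowest sum. Their mean relative to all 6 mice was −0.01, 0.06 and 0.55 in LERKO. In CT it was −0.21, −0.25 and −0.14, where CT replicate 3 was instead the highest of its group. Of these 10 genes, 3 were higher in LERKO without overlap and 0 lower, where 5.91% of all probe sets were higher and 7.13% lower. None of the 10 had an adjusted p under 0.05 from limma. Of the Y chromosome, Kdm5d was at 2.77, Eif2s3y at 2.65 and Uty at 2.55 in CT replicate 3, below a signal of 100 like in all other mice. Xist, which coats the inactive X chromosome, was at 10.89 in this mouse, the lowest of all, and between 10.96 and 11.31 in the others. The part of the pancreas and muscle RNA of this array in the level of Slco1a1 was not tested. These sex chromosome genes were picked after their values were seen.

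**Figure D2:**
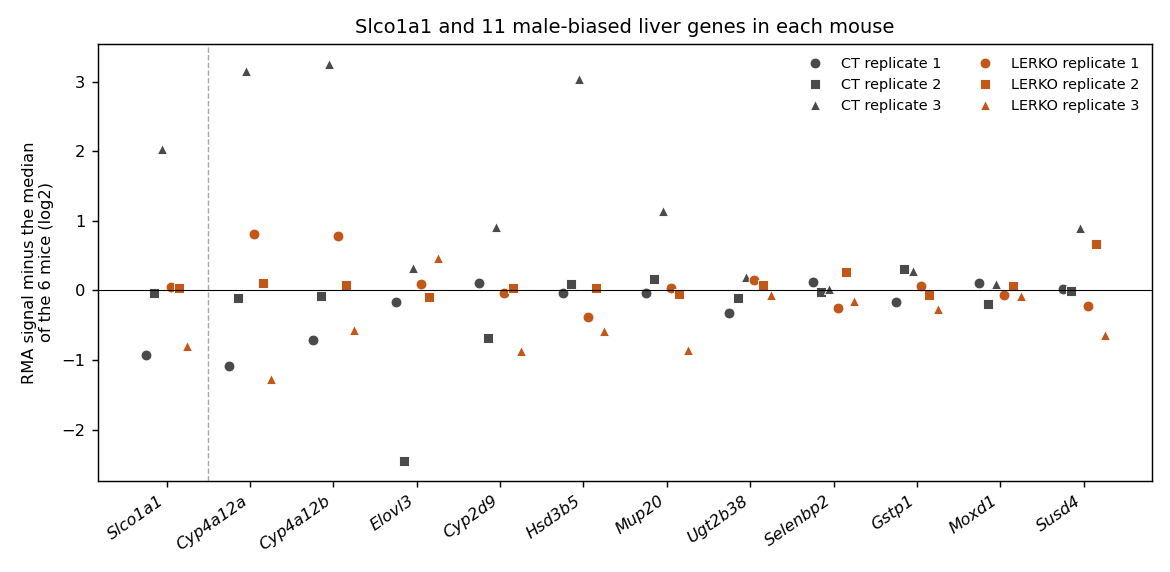
RMA signal of Slco1a1 and of 11 male-biased liver genes, each symbol a mouse, drawn as the log2 difference from the median of the 6 mice. CT replicate 3 (dark triangles) is highest for Slco1a1, Cyp4a12a, Cyp4a12b, Cyp2d9, Hsd3b5, Mup20, Ugt2b38 and Susd4, and Elovl3 is lowest in CT replicate 2.

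At the canalicular membrane, the main pumps had nearly equal levels in both genotypes. Abcb11 (probe set 10483410), the bile salt export pump, had signals of 10.44, 10.61 and 10.43 in CT and 10.55, 10.50 and 10.56 in LERKO. All LERKO mice lay inside the range of the CT mice. LERKO signal was 1.03-fold that of CT (95% confidence interval 0.906 to 1.17, adjusted p = 0.925 from limma). Abcc2 (probe set 10463308), which exports bilirubin glucuronide and glutathione conjugates, had 11.43, 11.34 and 11.22 in CT and 11.38, 11.30 and 11.34 in LERKO, where the LERKO mice again lay inside the CT range. The ratio was 1.01 (95% confidence interval 0.884 to 1.14, adjusted p = 0.988 from limma), and the log2 fold change of 0.01 turned to −0.05 without CT replicate 3. Abcb1a (probe set 10519527), a P-glycoprotein that exports drugs and other hydrophobic compounds, was close to a signal of 100, at 6.95, 6.52 and 6.08 in CT and 6.65, 6.72 and 6.66 in LERKO. It reached that signal in 4 of 6 mice. The log2 fold change of 0.16 (95% confidence interval −0.33 to 0.65, adjusted p = 0.876 from limma) turned to −0.06 without CT replicate 3, its lowest mouse.

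Abcb4 and Atp8b1, which act on the phospholipids of the canalicular membrane, lay on opposite sides of 0. Abcb4 (probe set 10519578) moves phosphatidylcholine to the outer leaflet, from which bile salts extract it. Its signals were 9.97, 9.92 and 10.15 in CT and 10.49, 10.10 and 10.36 in LERKO. LERKO replicate 2 lay below CT replicate 3, and the other LERKO mice lay above all CT mice. The CT level was 10.01 ± 0.12 and the LERKO level 10.32 ± 0.20 (each mean ± SD, n = 3 mice). LERKO signal was 1.24-fold that of CT (95% confidence interval 1.01 to 1.51), with an unadjusted p of 0.0405 and an adjusted p of 0.703 from limma. Without CT replicate 3 and LERKO replicate 2, the arrays with genes of other organs, the log2 fold change of 0.31 became 0.49, at an adjusted p of 0.392. The unadjusted p from limma was 0.101, 0.111, 0.126 and 0.105 without CT replicate 1, CT replicate 2, LERKO replicate 1 and LERKO replicate 3. It was 0.0276 without CT replicate 3, 0.00865 without LERKO replicate 2 and 0.00443 without both.

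Atp8b1 (probe set 10459421), a flippase that returns phosphatidylserine to the inner leaflet and keeps the membrane resistant to bile salts, had the smallest p of the 10 genes. Its signals were 8.14, 8.47 and 8.44 in CT and 8.13, 7.79 and 7.89 in LERKO. All LERKO mice were below all CT mice, but replicate 1 of both groups had almost the same signal (exact two-sided permutation test, p = 0.1). The CT level was 8.35 ± 0.18 and the LERKO level 7.94 ± 0.17 (each mean ± SD, n = 3 mice). LERKO signal was 75.2% of that in CT (95% confidence interval 60.8% to 93.0%), a log2 fold change of −0.41 with an unadjusted p of 0.0160 and an adjusted p of 0.703 from limma. This p ranked 225 among the 10633 probe sets. With 1 array left out the log2 fold change ranged from −0.52 to −0.34, and the unadjusted p was 0.0516 without CT replicate 2 and 0.0545 without LERKO replicate 2. Without CT replicate 3 and LERKO replicate 2 together it was −0.29, at an unadjusted p of 0.122.

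Markers of cholangiocytes, the cells that line bile ducts, were near or below a signal of 100. Over 6 measured markers, of which 5 stayed below that signal in all mice, the summed signal was 7.86 to 8.26 in CT and 7.58 to 7.76 in LERKO. Sox9, a transcription factor of biliary cells, was at 6.79, 7.32 and 6.60 in CT and at 6.52, 6.45 and 6.51 in LERKO, and passed the filter through CT replicates 1 and 2 alone. Slc10a2, the sodium-dependent bile acid carrier of cholangiocytes and ileum, was at 6.39, 6.44 and 5.85 in CT and at 5.30, 5.28 and 5.78 in LERKO, below a signal of 100 throughout. The defining keratins Krt19 and Krt7, the adhesion molecule Epcam and the chloride channel Cftr were below a signal of 100 in all mice. Their differences on the log2 scale were 0.01, −0.10, −0.28 and −0.16, in this order. The part of these cells in the level of Atp8b1 was not tested. Tmem30a, the partner subunit that flippases such as Atp8b1 need to leave the endoplasmic reticulum, differed by −0.08 on the log2 scale (adjusted p = 0.883 from limma), with overlapping groups.

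**Figure D3:**
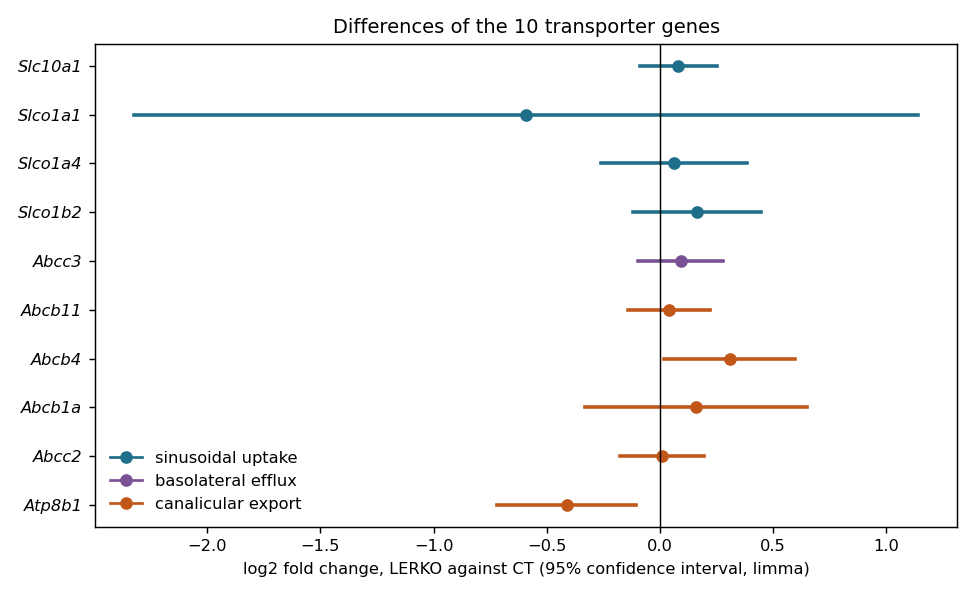
Log2 fold change, LERKO over CT, of the 10 transporter genes (points) with the 95% confidence interval from limma (bars), coloured by site of transport. The intervals of Atp8b1 and Abcb4 leave out 0 on opposite sides, and Slco1a1 has the widest interval, from −2.32 to 1.14.

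Abcc3 (probe set 10389894), which exports glucuronides and bile acids back to blood and is known to increase in cholestasis, had signals of 11.01, 10.84 and 10.86 in CT and 11.07, 10.94 and 10.96 in LERKO. The groups overlapped through CT replicate 1, and the ratio was 1.06 (95% confidence interval 0.934 to 1.21, adjusted p = 0.821 from limma). By site, the 4 uptake genes had a median log2 fold change of 0.07 and the 5 canalicular genes of 0.04, beside −0.01 over all probe sets compared. The uptake median was 0.08 without Slco1a1, and the canalicular median −0.05 without CT replicate 3. The mean over the uptake genes, relative to all 6 mice, was −0.16, −0.14 and 0.41 in CT and 0.06, 0.05 and −0.22 in LERKO, with the high value of CT replicate 3 set by Slco1a1. The mean over the canalicular genes was 0.04, 0.02 and −0.09 in CT and 0.09, −0.07 and 0.01 in LERKO, so the groups overlapped for both sites.

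Among carriers outside the 10, Slc22a7 and Slc22a5 showed no overlap, with every LERKO mouse above every CT mouse. Over all probe sets compared, 5.91% were higher in LERKO without overlap. Slc22a7, a sinusoidal carrier of organic anions, was at 6.37, 5.49 and 6.38 in CT and at 6.70, 6.75 and 6.99 in LERKO. It reached a signal of 100 in the LERKO mice only, so it was compared through the group where it is high, and LERKO was 0.73 ± 0.25 higher on the log2 scale (standard error; limma adjusted p = 0.703). Slc22a5, the carnitine carrier, which PPARα induces, was at 8.15, 7.79 and 8.46 in CT and at 8.90, 8.53 and 8.57 in LERKO, 0.53 ± 0.18 higher on the log2 scale (standard error; limma adjusted p = 0.703). The prostaglandin carrier Slco2a1 had −0.18 and the organic anion carrier Slco2b1 −0.02. Of the 5 other uptake carriers compared, 2 lay above 0 and 3 below, with 0 past an adjusted p of 0.05. Of 7 other canalicular carriers, 5 lay above 0 and 2 below, with a median of 0.06, and in each the groups overlapped. In that list the sterol exporters Abcg5 and Abcg8 had 0.11 and 0.03. Aqp8, a water channel, had −0.51 (standard error 0.47), and Atp7b, which exports copper, had 0.18. Of 5 other carriers for efflux to blood, only Abcc4, a carrier of conjugated steroids and bile acids that increases in cholestasis, and Abcc6 reached a signal of 100, with 0.24 and −0.07. Slc51a and Slc51b, the subunits of the basolateral bile acid exporter that cholestasis induces, were below a signal of 100 in all mice.

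Of 12 compared regulators of these transporters, 5 were above 0 in LERKO and 7 below, around a median of −0.01 on the log2 scale, with 0 past an adjusted p of 0.05. Nr1h4, the bile acid receptor FXR that induces Abcb11 and Abcb4, was at 9.38, 9.27 and 9.41 in CT and at 9.52, 9.49 and 9.63 in LERKO. All LERKO mice were higher, by 0.19 ± 0.08 on the log2 scale (standard error; limma adjusted p = 0.703). Its target Nr0b2, a repressor that restrains bile acid synthesis and Slc10a1, was at 6.99, 6.04 and 7.28 in CT and at 7.79, 7.04 and 7.11 in LERKO, and the groups overlapped. Ahr, the aryl hydrocarbon receptor, differed by 0.51 ± 0.16 (standard error; limma adjusted p = 0.703), with all LERKO mice above all CT mice. Fgfr4, the hepatocyte receptor for the intestinal hormone that represses bile acid synthesis, had −0.29 ± 0.12 (standard error; limma adjusted p = 0.703), with all LERKO mice below. Without overlap, 2 of the 12 were higher and 1 lower, where 5.91% of all probe sets compared were higher and 7.13% lower. Hnf4a, Rxra and Nr1i2, which bind promoters of several transporters, had −0.0016, 0.02 and −0.06. Of the 14 genes of bile acid synthesis, 9 were above 0 and 5 below, with a median of 0.06. Cyp7a1, the rate-limiting enzyme, had 0.46 ± 0.07 (standard error; limma adjusted p = 0.703), with all LERKO mice above all CT mice. Hsd17b4, a peroxisomal enzyme of side chain shortening, had 0.39 (standard error 0.10), also without overlap. Of the 14 genes, 2 were higher and 0 lower without overlap, beside the same shares of all probe sets. Hsd3b7 and Akr1d1, which modify the sterol ring, had 0.17 and 0.21, and their groups overlapped.

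**Figure D4:**
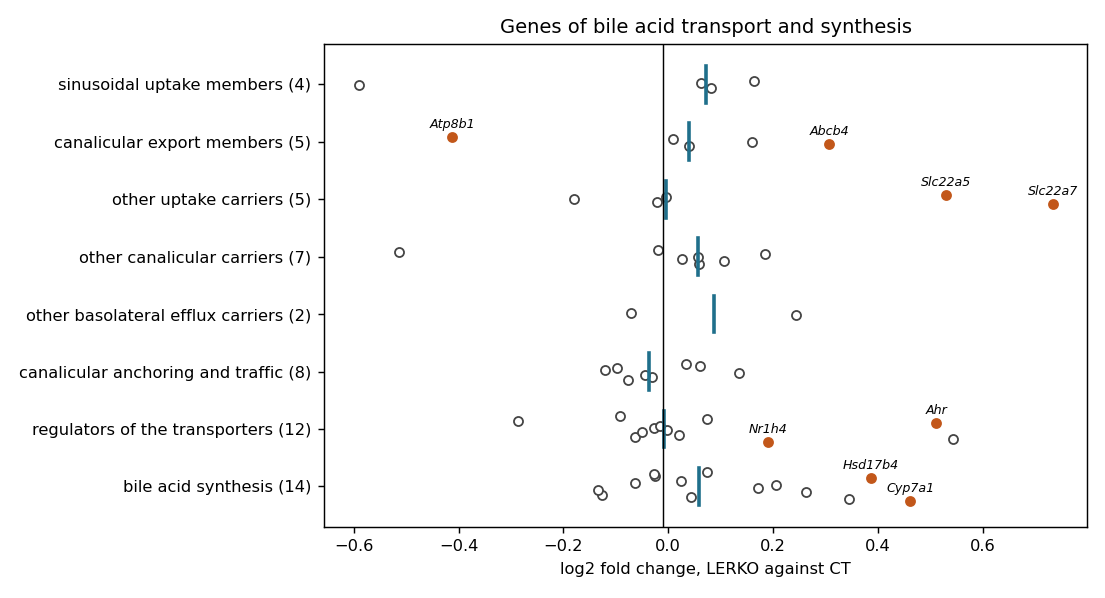
Log2 fold change, LERKO over CT, of single genes (circles) in 8 lists of bile acid transport and synthesis, with the number of genes compared in brackets; blue bars are list medians, the black line is the median of all probe sets, and filled circles are genes with an unadjusted p under 0.05 from limma. The list medians lie between −0.04 and 0.09, beside −0.01 over all probe sets, and Slc22a7, the rightmost circle, passed the filter through the LERKO mice alone.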

How the data were processed

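The files hold Affymetrix Mouse Gene 1.1 ST arrays of liver RNA from 3 CT and 3 LERKO females. For each probe set they give a deposited log2 signal, which the authors made with RMA (robust multichip average) as run by oligo (background correction, quantile normalization over arrays, summary of probes); the version is not given in the sources used here. Quantile normalization gives all arrays 1 distribution, so a shift of all genes would not be seen.

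Genes were named from probe sets that the platform's annotation pairs with 1 gene, with symbols updated by gene ID (21185 of 21218 matched RefSeq). Where a gene had several such probe sets, that of highest mean was used. Probe sets with a signal of 100 or more in an array (10633) entered a linear model of genotype with no other term (limma 3.58.1, R 4.3.3, moderated with eBayes), and its two-sided p values were adjusted over all of them by Benjamini-Hochberg. The 10 transporters and the gene lists were chosen with earlier results of these data known. The text names the transporters, Esr1, up to 4 genes of smallest p per list and sex-biased genes; other genes it names, among them Abcg8, Slc51a, Slc51b, Hnf4a, Rxra, Nr1i2, Tmem30a and the cholangiocyte markers, were named after their values were seen. Listed genes without a probe set of 1 gene in the tables used here were not analysed here. Abcb1a and Abcb1b, and the Slco1a genes, are close paralogs, and signal shared between their probes was not tested.

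The fit was tested on simulated data. The number of arrays, 3 per group, limits the precision, and an exact permutation test of 3 mice against 3 can reach no lower than p = 0.1. The comparison was repeated with other signal filters, variance models and normalizations, and with array weights. It was also repeated with a block for replicate number, by an unequal-variance t-test and without single arrays. Promoter windows are from RefSeq, build GRCm38.p6.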

Additional observations from a re-analysis of the deposited data

How the results depend on the processing

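None of the 10 transporters had an adjusted p under 0.05 in any alternative, whose adjusted p values ranged from 0.392 (Abcb4, without both arrays that held genes of other organs) to 0.999. Slc10a1, Slco1b2, Abcb11, Abcb4, Abcc3 and Atp8b1 kept their direction in all 18 alternatives. The others turned with CT replicate 3: with 1 array left out, the log2 fold change ran from −1.23 to 0.25 for Slco1a1, −0.028 to 0.173 for Slco1a4, −0.058 to 0.377 for Abcb1a and −0.046 to 0.059 for Abcc2, which also turned (−0.0098) without LERKO replicate 1. Without both CT replicate 3 and LERKO replicate 2, an alternative chosen after seeing the data, these were 0.113, −0.0815, −0.0810 and −0.0281. With array weights, Slco1a4 had −0.0205 and Abcc2 −0.0254. The causes were not tested. The canalicular median lay between −0.046 and 0.098 when single arrays were dropped. The uptake median lay between 0.020 and 0.135 over all of its alternatives. Over all probe sets, 0 were called, and 3 where a signal of 100 was required in all 6 arrays, a filter that Slco1a1 and Abcb1a do not pass. With a variance trend 1 was called. Dropping single arrays gave 0 to 1, and unadjusted counts from 416 (without LERKO replicate 1) to 1188 (without CT replicate 3), beside 742. With the replicate number as a block, 0 were called. Same-numbered mice deviated from their group means with correlations of −0.16, −0.07 and −0.14, and 0 of 6 arrays correlated best with their own number. No pairing by number was seen. With 3 mice a group and genes of other organs in CT replicate 3 and LERKO replicate 2, this check cannot exclude one. Other probe sets of the 10 genes could not be tried, since each had 1.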

Other observations

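Slco1a1, Slco1a4 and Slco1b2 lie in a cluster of related carrier genes. Its other members with a probe set of 1 gene were below a signal of 100 in all 6 livers. Slco1c1, a thyroid hormone carrier of brain vessels, had a difference of 0.13 between LERKO and CT on the log2 scale. Gm6614 had 0.18, Slco1a6 had 0.01 and Slco1a5 had 0.09. These neighbours were chosen by their position in the RefSeq gene order, after the data were seen. In the cluster of Abcb1a and Abcb4, the P-glycoprotein gene Abcb1b was below a signal of 100 in all mice, at 6.19 in LERKO replicate 2 and between 3.63 and 4.14 in the others. LERKO replicate 2 is the array with adrenal genes, where Cyp21a1, which makes adrenal steroids, was at 11.67. The part of adrenal RNA in the level of Abcb1b was not tested.

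Of 8 compared genes that anchor canalicular carriers or bring them to the membrane, 3 lay above 0 and 5 below, with a median log2 fold change of −0.04, and 0 had an unadjusted p under 0.05 from limma. Rab11a, a GTPase of recycling endosomes, had −0.12 (standard error 0.07), with all LERKO mice below all CT mice. Over all probe sets compared, 7.13% were lower without overlap. Myo5b, the motor that works with it, had 0.14 (standard error 0.08), and the groups overlapped. Vipas39, which serves apical sorting in hepatocytes, had −0.10, and Rdx, the main linker of canalicular carriers to actin, −0.03. Rdx is named after its value was seen.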
